A study of Mus musculus with 36 samples.

Results

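The cytosolic ribosome of mammalian cells is built from ribosomal RNA and about as many protein-coding genes as are described here, the Rpl, Rps and Rplp genes. They were taken from the deposited count table of mouse brain libraries by symbol: a protein-coding gene whose symbol begins with Rpl, Rps or Rplp and a digit, or is Rpsa, with a mean of at least 1 CPM (read counts scaled to a common library size). Of 102 protein-coding symbols of that form, 10 were Rps6k kinases, 6 carried pseudogene names and 6 had a mean below 1 CPM, which left 80 genes of the 54532 rows in the table. All 80 passed the count filter and were among the 18438 genes tested. They comprised 31 genes of the small (40S) subunit, 42 of the large (60S) subunit, the 3 stalk genes Rplp0, Rplp1 and Rplp2, and 4 related symbols. Rps19bp1, which encodes a binding partner of Rps19, and Rpl7l1, a relative of Rpl7, carry the name without being standard ribosomal subunits. Rps27l and Rpl22l1 encode paralogs of Rps27 and Rpl22. Fau, whose precursor releases a 40S protein, has another symbol and is given separately.

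The libraries come from whole brains of WT C57BL/6 mice, collected at day 19, the peak of experimental autoimmune encephalomyelitis (EAE), and sequenced as RNA. EAE is a T cell driven model of multiple sclerosis, here induced with the myelin peptide MOG35-55 in a complete Freund's adjuvant emulsion plus pertussis toxin, given on the day of induction and again on the next day. Naive, healthy mice (n = 8) were compared with EAE mice that received nothing further (untreated, n = 9), corn oil by daily gavage (vehicle, n = 9) or farnesol (trans,trans-farnesol, an isoprenoid alcohol) dissolved in that oil, 100 mg/kg daily (n = 10). No group received adjuvant and toxin without the peptide, and no source used here gives the age of the mice. The labels give each library as a replicate of its group without saying how animals were housed or processed, so p-values measure the spread between these 36 libraries.

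Ribosomal protein mRNAs are among the most abundant in a cell, and their proteins are needed in near-equal amounts for a particle that holds 1 copy of most subunits. Many begin at a run of pyrimidines, the 5′ terminal oligopyrimidine (TOP) motif, through which the kinase mTOR and the protein LARP1 adjust their translation together. In the brain they are expressed by neurons and glia alike, so that whole tissue RNA reports a sum over cell types.

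The start-site sequences are shown because they are the feature through which the family is known to be regulated as a unit. RefSeq (GRCm38.p6) promoter windows matched 60 of the 80 genes by symbol, with 71 annotated starts. Each line below runs from 10 bases before the start to base 20 after it, 5′ to 3′ on the coding strand. Capitals mark the longest run of at least 7 C or T in a row that touches the stretch from 5 bases before to 10 after the start. Other runs stay in lower case. The first 4 genes passed the test in at least 1 comparison below, Rps6 encodes the subunit phosphorylated downstream of mTOR, and Rps27 and Rpl38 are short mRNAs with the wide spread described further on.
Rpl28 (chr7:4792955-4792984, plus strand): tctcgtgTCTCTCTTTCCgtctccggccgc
Rplp2 (chr7:141447641-141447670, plus strand): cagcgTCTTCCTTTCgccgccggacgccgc
Rps10 (chr17:27635225-27635254, minus strand): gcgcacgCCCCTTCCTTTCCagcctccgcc
Rpl9 (chr5:65391412-65391441, minus strand): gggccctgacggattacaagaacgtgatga
Rps6 (chr4:86857348-86857377, minus strand): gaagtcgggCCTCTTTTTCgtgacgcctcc
Rps27 (chr3:90213629-90213658, minus strand): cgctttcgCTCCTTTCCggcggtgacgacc
Rpl38 (chr11:114668570-114668599, plus strand): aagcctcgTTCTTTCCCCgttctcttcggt
A run of 7 or more pyrimidines touching the stretch from 5 bases before to 10 after the start was present at 31 of the 71 member starts (43.7%), against 16.3% of all 32851 starts in the table. Rpl9 had none in the window printed.

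In windows from 250 bases before to 50 after the start, the letters CGGAAG on either strand, the core recognised by ETS factors such as GABPA, occurred at 62% of member starts and 16.9% of all starts. ATGGCGG, the core of the YY1 motif, occurred on either strand at 19.7% and 4.05%. TATAAA was found on either strand at 9.86% of member starts and 13.6% of all starts, and CACGTG, the E-box of MYC, at 11.3% and 7.15%. ATGGCGG and CGGAAG can share their letters CGG, and a match describes the sequence without showing that a factor is bound. The 200 bases before the start of Rps28 (chr17:33824563-33824762, minus strand), a short 40S gene named here after its values were seen, are given as an example, with the match to CGGAAG on the other strand in capitals.
Rps28: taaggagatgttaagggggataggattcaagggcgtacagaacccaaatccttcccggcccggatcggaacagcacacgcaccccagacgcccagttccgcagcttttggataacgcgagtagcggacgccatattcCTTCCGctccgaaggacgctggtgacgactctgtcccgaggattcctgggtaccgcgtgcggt

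Depth was 14705992 to 24211092 counts per library. All 16 brain cell markers were detected in every library. The libraries fell into 2 sets by the ribosomal RNA gene CT010467.1, which lay at or above 5091 CPM in the 8 naive libraries and farnesol replicates 4 to 10. It lay at or below 2784 CPM in farnesol replicates 1 to 3 and in every library of the other EAE groups. No source used here names a batch. Of the cerebellar markers, naive replicate 4, untreated replicate 3 and farnesol replicate 2 held 147 to 226 CPM in sum, against 864 to 2078 CPM in the other libraries. Without these 3 libraries, an exclusion chosen after seeing the data, 4, 5 and 3 members were called in untreated, vehicle and farnesol against naive mice, beside 4, 4 and 2 with them. Of all genes tested, 22.9%, 31.3% and 33.4% were called without these libraries, beside 24.9%, 31.5% and 34.2% with them. Against naive mice, the untreated and vehicle groups therefore cannot be told apart from the library set, whereas farnesol replicates 4 to 10 share a set with the naive libraries. Summed CPM of the 16 leukocyte markers was 130 to 150 in naive libraries and 162 to 338, 170 to 424 and 168 to 359 in the untreated, vehicle and farnesol groups. No marker was at 0 in all libraries of a group. Cd3d was at 0 in some libraries of each group, Cd3g in some naive and untreated libraries, and Plac8 in some naive libraries. The part of infiltrating cells in the results below was not tested. In bulk tissue, fewer cells of a type and less RNA per cell cannot be told apart.

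The 80 genes held 1.03% to 1.42% of all counts in a library, and this share hardly separated the groups. It was 1.19% ± 0.0694 (SD, n = 8) in naive mice, 1.21% ± 0.121 (n = 9) in untreated EAE, 1.22% ± 0.118 (n = 9) in vehicle EAE and 1.21% ± 0.072 (n = 10) in farnesol EAE. Averaged over the 80 genes as log2(CPM + 0.5) with TMM-scaled library sizes, the level was 6.97 ± 0.098 (SD) in naive mice, against 6.93 ± 0.14 with no treatment, 6.92 ± 0.14 with vehicle and 6.93 ± 0.087 with farnesol. With no scaling factor the naive mean was the lowest, at 6.91, against 6.94, 6.95 and 6.95. The lowest, median and highest libraries were 6.77, 7.00 and 7.08 for naive mice, 6.72, 6.95 and 7.18 for untreated, 6.67, 6.90 and 7.13 for vehicle and 6.77, 6.97 and 7.04 for farnesol mice. The 4 groups overlapped over most of their range, and the lowest and the highest library of the series were both from EAE mice.

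**Figure D1:**
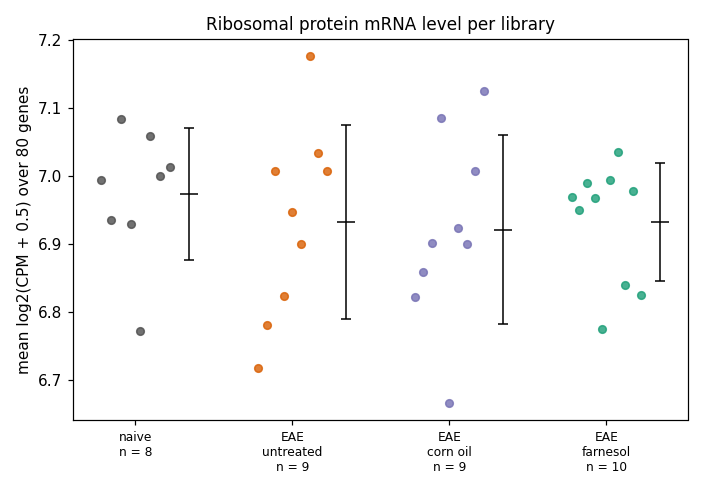
Mean log2(CPM + 0.5) over the 80 genes in each library (points), by group, with the group mean and SD (bars). The groups overlap, and the untreated and vehicle groups span a wider range (6.72 to 7.18 and 6.67 to 7.13) than the naive (6.77 to 7.08) and farnesol (6.77 to 7.04) groups.

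Levels differ widely between members. Per length, as CPM per kilobase of the principal transcript averaged over all 36 libraries, the median member was at 202 CPM per kb. The highest were Rplp1 of the stalk at 635, Rps15 at 456, Rpl41, which encodes the shortest ribosomal protein, at 385, Rps21 at 360 and Rps14 at 358 CPM per kb. The lowest were Rps10 at 6.1, Rpl13a at 14.2, Rps19bp1 at 15.7, Rps27l at 19.7 and Rps20 at 28 CPM per kb, the last on a principal transcript annotated with 3706 bases. Of the 10 highest by level per length in each group, 9 were among the 10 highest in all 4 groups, and the 10 lowest were the same 10 genes in every group. Overlap with other genes differed among the low members and beyond them. For Rps10, 91.6% of the exon bases (chr17:27630418-27636669, minus strand) lie under a read-through gene, RPS10-NUDT3, and 59.3% of those of Rpl13a (chr7:45125558-45128761, minus strand) lie under Gm45713. Rpl35 and Rpl23a, 60S genes named after their values were seen, have 68.3% under Wdr38 and 55.4% under Tlcd1, at 72 and 177 CPM per kb. Rps19bp1 and Rps27l have no such overlap. The part of overlap in the levels was not tested. No source used here says how reads on shared exons were assigned. Rpl24, a 60S gene left out at 0.716 CPM, is likewise overlapped over 71.5% of its exon bases by Gm28037, and was named after its values were seen. Rps10 and Rps27l were the members nearest the 1 CPM limit, at 3.04 and 9.85 CPM, and Rps27rt, at 0.879 CPM, was the nearest gene left out.

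Few of these mRNAs passed the test in untreated EAE. Against naive mice, 4 of 80 genes (5%) passed the test at an adjusted p below 0.05, where 24.9% of all 18438 genes tested did: Rpl9, Rpl28 and Rpl3 fell, and Rps10 rose. Rpl9, a 60S protein, measured 213, 246 and 266 CPM in the lowest, median and highest naive library and 174, 198 and 256 CPM in untreated libraries. All but 1 of the 9 untreated libraries lay below the naive median, and the groups overlapped. The change was -0.22 ± 0.062 (log2 ± SE; edgeR quasi-likelihood test, Benjamini-Hochberg adjusted p = 0.00791). Rpl28, another 60S protein, went from a median of 152 CPM (131 to 169) in naive to 135 CPM (117 to 148) in untreated mice, where all 9 libraries lay below the naive median, a change of -0.18 ± 0.063 (edgeR adjusted p = 0.0356). Rpl3, which helps form the peptidyl transferase centre, had a median of 423 CPM (403 to 460) in naive and 383 CPM (347 to 450) in untreated mice, a change of -0.13 ± 0.046 (edgeR adjusted p = 0.0329).

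Rps10, a 40S protein at the mRNA entry side, moved the other way on very few reads. It measured 1.52, 2.46 and 3.09 CPM (lowest, median, highest) in naive and 2.69, 2.95 and 3.96 CPM in untreated libraries, from 22 to 57 and 47 to 79 counts per library. All 9 untreated libraries lay above the naive median and the groups overlapped, with a change of 0.32 ± 0.12 (edgeR adjusted p = 0.0373). Over the family, 58 of 80 estimates were below 0 and 22 above, with a median change of -0.035 beside -0.0055 over all genes tested. With no scaling factor beyond the library total the median turned positive, at 0.034 beside 0.063 over all genes, and of the 4 calls that of Rps10 was kept. The 95% intervals of 79 of the 80 genes lay within 0.5 of 0, the exception being Rps10. The count of called genes fell to 1 without untreated replicate 4 or naive replicate 3, and to 2 without untreated replicate 1, 2 or 5 or naive replicate 1, 2, 6 or 7. Of all genes tested, 22.7% were called without untreated replicate 4, and 25.2%, 25% and 23.4% without untreated replicates 1, 2 and 5. Without the 5 untreated and 3 vehicle libraries that carried the prostate gene Sbp above 1 CPM, the count was 7 with a median of 0.053. This exclusion was chosen after seeing the data, and none of these 7 was among the 4. Those 7 were 8.75% of the family, where 18.7% of all genes tested were called.

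In EAE mice given corn oil, 4 of 80 genes passed against naive mice, beside 31.5% of all genes tested: Rpl9, Rpl28 and Rplp2 fell and Rps10 rose. In vehicle libraries Rpl28 measured 106, 133 and 151 CPM (lowest, median, highest), all 9 below the naive median of 152 CPM, with a change of -0.20 ± 0.063 (edgeR adjusted p = 0.0148). Rpl9 measured 178, 213 and 241 CPM, again with all 9 libraries below the naive median, a change of -0.20 ± 0.062 (edgeR adjusted p = 0.0109). Rplp2, one of the acidic stalk proteins that recruit elongation factors, was at 109, 130 and 148 CPM in naive and at 97.2, 115 and 138 CPM in vehicle mice. Its groups overlapped widely, and the change was -0.18 ± 0.067 (edgeR adjusted p = 0.0406). Rps10 measured 2.74, 3.16 and 3.96 CPM in vehicle libraries, all 9 above the naive median, with a change of 0.44 ± 0.12 (edgeR adjusted p = 0.00366). Its groups overlapped. The family's median change was -0.053, with 68 of 80 estimates below 0, beside 0.0043 over all genes; with no scaling factor it was 0.041 beside 0.098. The count was 8 without vehicle replicate 4 and 10 without vehicle replicate 9, the libraries with the second highest and the highest family level in that group. Those were 10% and 12.5% of the family, where 27.7% and 31.2% of all genes tested were called.

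Farnesol-treated EAE mice differed from naive mice in 2 of the 80 genes, against 34.2% of all genes tested. Rpl28 measured 117, 130 and 166 CPM (lowest, median, highest) in farnesol libraries, 9 of 10 below the naive median, with a change of -0.19 ± 0.062 (edgeR adjusted p = 0.0186). Rps10 measured 2.45, 3.18 and 3.94 CPM, 9 of 10 above the naive median, with a change of 0.36 ± 0.11 (edgeR adjusted p = 0.0125). Both pairs of groups overlapped. Rpl9, at 191, 222 and 248 CPM, had a change of -0.13 ± 0.06 that did not pass (edgeR adjusted p = 0.105). Among libraries of the set that naive mice share with farnesol replicates 4 to 10, the change of Rpl28 was -0.15 (edgeR adjusted p = 0.083) and Rps10 was the only member called. Of all 17283 genes tested there, 28.2% were called. In the main fit the family's median change was -0.035, beside 0.0052 over all genes, and 0.047 beside 0.087 with no scaling factor. The count was 4 without farnesol replicate 4 or naive replicate 4 and 6 without farnesol replicate 7 or naive replicate 5. Of all genes tested, 33.2% were called without farnesol replicate 4 and 35.1% without farnesol replicate 7. These 3 comparisons share the naive libraries, so that a gene called in several of them is not seen independently each time.

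**Figure D2:**
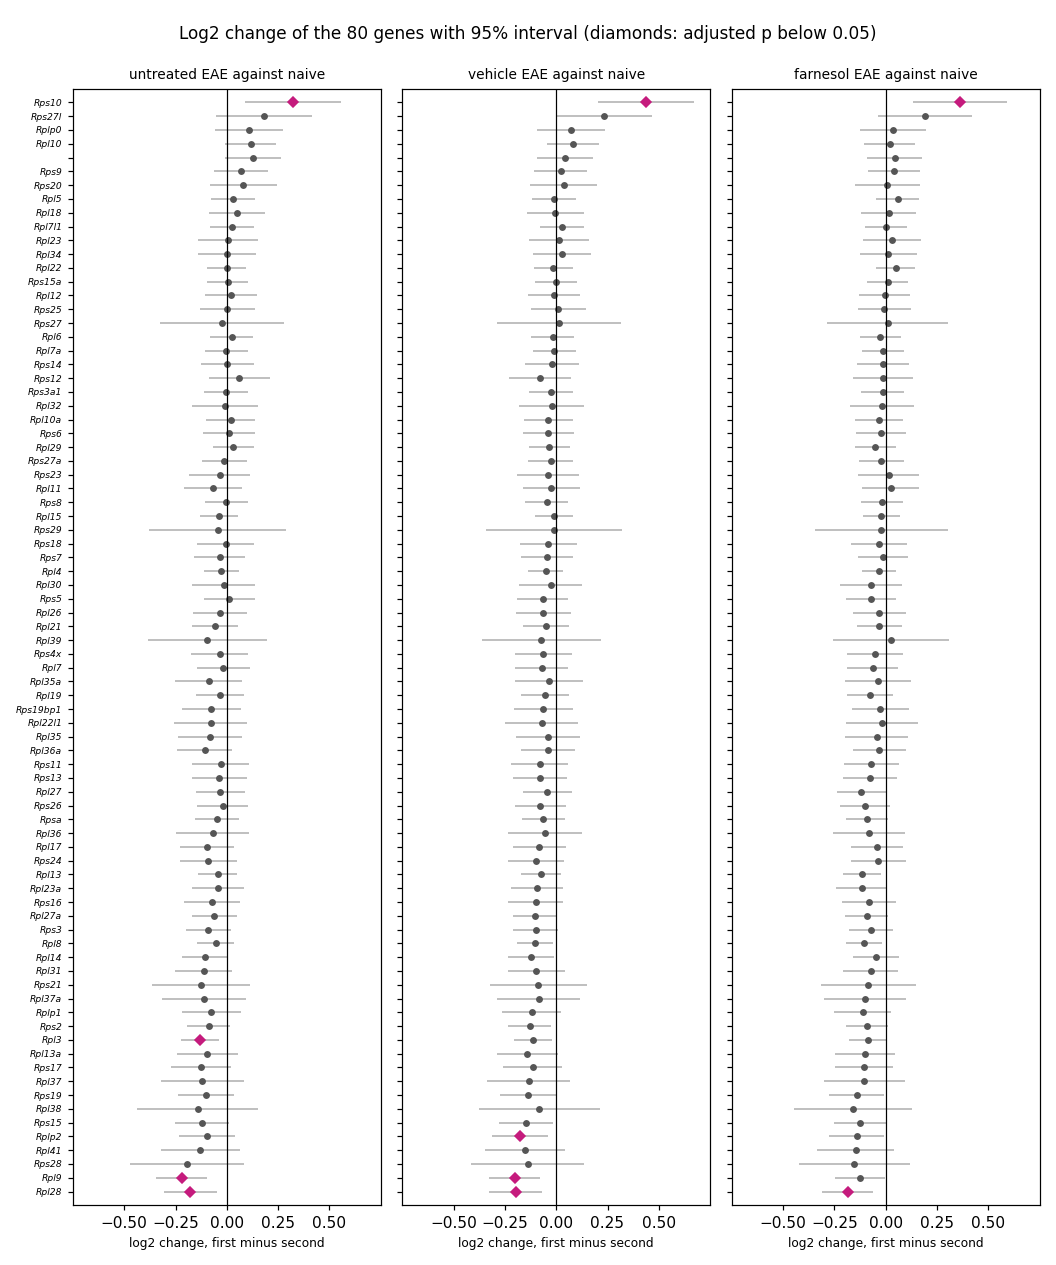
Log2 change (EAE group minus naive) of each of the 80 genes with its 95% interval, genes ordered by their mean change over the 3 comparisons. Diamonds mark adjusted p below 0.05: 4, 4 and 2 genes, with Rps10 at the top and Rpl28 and Rpl9 at the bottom, and all other intervals within 0.5 of 0.

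**Figure D3:**
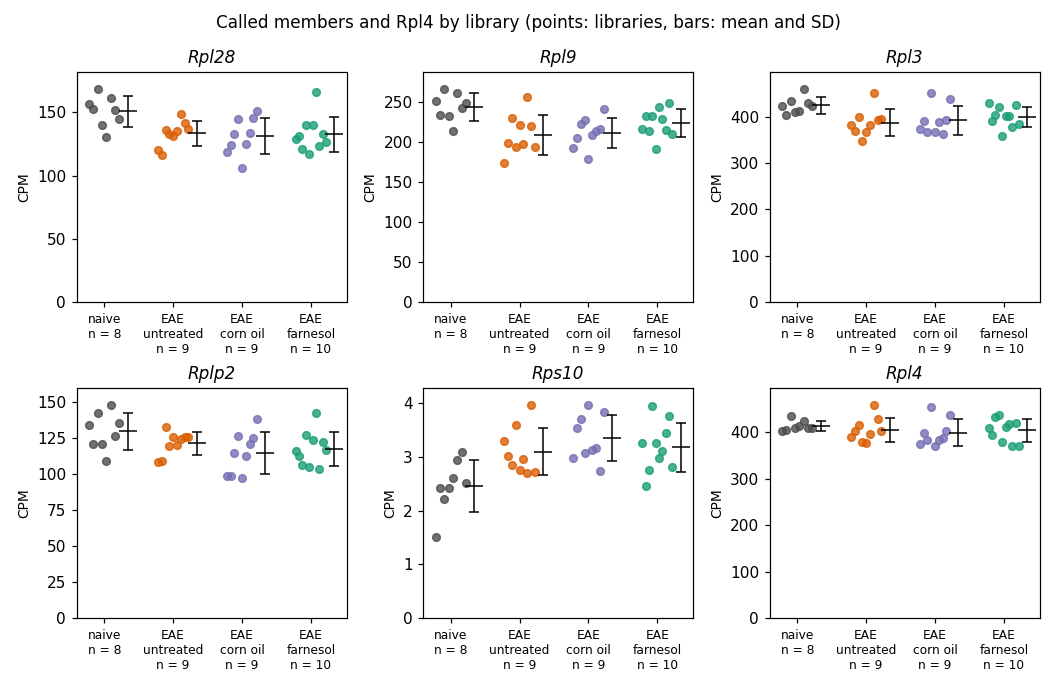
CPM of the 5 genes called in any comparison and, for scale, of Rpl4, by library (points) with group mean and SD (bars), axes starting at 0. The groups overlap in every panel, and Rps10 lies below 4 CPM throughout.

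Among the EAE groups, no gene of the family passed between vehicle and untreated mice, where 0.0217% of all genes tested did, between farnesol and vehicle mice (0.0922%, of which 0.0814% higher and 0.0108% lower), or between farnesol and untreated mice (1.87%, of which 0.96% higher and 0.911% lower). By edgeR no member had an unadjusted p below 0.05 in these 3 comparisons, where 1522, 1031 and 2659 of all 18438 genes tested did. DESeq2 called no member, and 45, 42 and 521 of all genes. Members move together between libraries, so their results are not independent. The 21 libraries of lower CT010467.1 were 9 untreated, 9 vehicle and 3 farnesol libraries. Within them edgeR called no member, but also only 1, 0 and 12 of all 19017 genes tested. Farnesol against the other EAE groups is thus partly confounded with library set. In the main fit the median changes of the members were -0.016, 0.0068 and -0.0091. The 95% intervals bound what could have been missed: over the 80 genes they ran from -0.29 to 0.36 for vehicle against untreated, from -0.36 to 0.37 for farnesol against vehicle and from -0.30 to 0.39 for farnesol against untreated mice. Without the libraries that carried Sbp above 1 CPM, farnesol against untreated mice gave 2 calls (2.5%), with a median of -0.10. Of all genes tested, 1.18% were called there. In all 480 pairings of a gene with a comparison, between any of the 4 groups, the CPM ranges of the groups overlapped. Over all genes tested, the ranges did not overlap for 3.62%, 7.24% and 4.82% in untreated, vehicle and farnesol against naive mice, and for 0.0108%, 0.00542% and 0.103% in vehicle against untreated, farnesol against vehicle and farnesol against untreated mice.

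Rps6, the S6 kinase target, measured 165 ± 8.18, 166 ± 9.39, 161 ± 22.4 and 162 ± 15.7 CPM (mean ± SD) in naive, untreated, vehicle and farnesol mice. Rpl5 and Rpl11, which bind MDM2 when ribosome assembly fails, measured 157 ± 4.8 and 150 ± 11.9 CPM in naive mice and 160 ± 18 and 143 ± 14.8 CPM in untreated mice. In vehicle mice they measured 156 ± 12.8 and 147 ± 20 CPM, and in farnesol mice 164 ± 10.1 and 152 ± 12.7 CPM. Rplp0, the stalk base and a common reference gene for PCR, was at 209 ± 12.4 CPM in naive and at 225 ± 27, 220 ± 38.8 and 214 ± 24.7 CPM in the EAE groups. Rpl13a, another such reference gene, was at 15.8 ± 1.2 CPM in naive and at 14.8 ± 1.42, 14.4 ± 1.27 and 14.8 ± 1.99 CPM in untreated, vehicle and farnesol mice. Rpsa, the laminin receptor protein of the 40S subunit, was at 351 ± 21.9 CPM in naive and at 339 ± 30, 336 ± 22.9 and 330 ± 27.6 CPM in these groups. None of these passed in any of the 6 comparisons. Rack1, a scaffold on the 40S head, and Fau showed changes of 0.10 ± 0.068 and 0.084 ± 0.067 in untreated against naive mice, also short of the threshold (edgeR adjusted p = 0.295 and 0.389).

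Small subunit genes held 39.5% ± 0.231 (SD, n = 8) of the counts of standard subunit genes in naive mice, 39.6% ± 0.431 in untreated, 39.5% ± 0.293 in vehicle and 39.7% ± 0.231 in farnesol mice, and never fell outside 38.9% to 40.2% in a library. As a share of the family total, 69 of the 80 genes in untreated, 72 in vehicle and 76 in farnesol mice stayed within 0.1 on the log2 scale of their naive share. The extremes were Rps10, with log2 ratios to its naive share of 0.38, 0.51 and 0.42, and Rpl9, Rpl9 and Rpl28, with ratios of -0.18, -0.14 and -0.13.

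Several paralogs lay below the 1 CPM limit. Rpl10l was not counted in any library, Rpl39l had 0.0439 CPM, Rpl3l, known from heart and skeletal muscle, 0.355 CPM and Rpl36al 0.359 CPM, the last with 63.1% of its exon bases under Gm49383, while their counterparts Rpl10, Rpl39, Rpl3 and Rpl36a measured 204, 44.3, 424 and 60.8 CPM in naive mice. Rpl22 measured 74 ± 3.37 CPM and Rpl22l1 23.3 ± 2.37 CPM in naive mice, and neither passed in any comparison. Rps27l, a p53 target, measured 8.82 ± 1.36 CPM in naive and 10.4 ± 1.47 CPM in vehicle mice (edgeR adjusted p = 0.124). Rps4x was at 197 ± 10.4 CPM in naive mice, while Rps4l, annotated as a pseudogene in GENCODE M21 and so no member, had a mean of 17.2 CPM. Ribosomal protein genes have many processed copies: over the members, a median of 43.2% of 100-base windows of the principal transcript recurred exactly in another annotated transcript, and 35 members exceeded 50%. Rpl9 and Rpl3 share 79.2% and 79.4% of such windows, Rpl28 46.8% and Rplp2 39.1%. Rps10 shares 89.5%, all of it with the overlapping read-through gene RPS10-NUDT3. The counts of these genes therefore depend on how reads with several matches or on shared exons were treated. Among the 13 members that shared under 10% of windows, none passed against naive mice, and their median changes were -0.028, -0.063 and -0.025. Over the whole family 5%, 5% and 2.5% passed, beside 24.9%, 31.5% and 34.2% of all genes tested. At these family rates 13 genes are too few to show whether they differ from the other members.

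In the libraries farthest from their group, most of the family lay on one side. In vehicle replicate 9 all 80 genes lay above their group median, and in vehicle replicate 5, 79 of 80 lay below it. Untreated replicate 7 had 76 and naive replicate 3 had 73 genes above the group median, and farnesol replicate 5 had 77 below. Other libraries split nearly evenly, such as farnesol replicate 2 with 36 genes above and 44 below. The span from the lowest to the highest library corresponded to 1.38-fold in both the untreated and the vehicle group, 1.24-fold in the naive and 1.2-fold in the farnesol group. The mean of the 40S genes and that of the 60S genes lay on the same side of their group means in 36 of 36 libraries. The SD of the family mean within groups was 0.119 on the log2 scale, against 0.0667 for 77 mitochondrial ribosomal protein genes, 0.109 for 78 nuclear respiratory chain genes, 0.0374 for 36 initiation factor genes and 0.0219 over all genes tested. Subtracting each library's family mean lowered the median SD of a member from 0.14 to 0.0799 and made it smaller for 75 of 80 genes. That mean was taken over the same 80 genes, so part of this fall is built in. All of these libraries share one scaling per library, so the values describe co-movement and carry no test.

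Other gene groups moved partly with the family. Mitochondrial ribosomal protein genes lay on the same side of their group mean as the family in 27 of 36 libraries and respiratory chain genes in 25. In vehicle replicate 9 the deviations were 0.20 for the family, 0.10 for the mitochondrial ribosome and 0.19 for the respiratory chain. In vehicle replicate 4, by contrast, they were 0.16, 0.035 and -0.048. The library highest in the family was also highest in summed erythroid markers in the untreated group (replicate 7, 562 CPM) and the naive group (replicate 3, 427 CPM). It was not in the vehicle group (replicate 9, 285 CPM, beside 525 CPM in replicate 6) or the farnesol group (replicate 7, 349 CPM, beside 375 CPM in replicate 2). The library lowest in the family was lowest in summed leukocyte markers in the naive group (replicate 5, 130 CPM) and the vehicle group (replicate 5, 170 CPM). In the untreated group replicate 1 had 207 CPM, beside 162 CPM in replicate 3, and in the farnesol group replicate 5 had 219 CPM, beside 168 CPM in replicate 10. The part of these cell types in the spread was not tested.

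**Figure D4:**
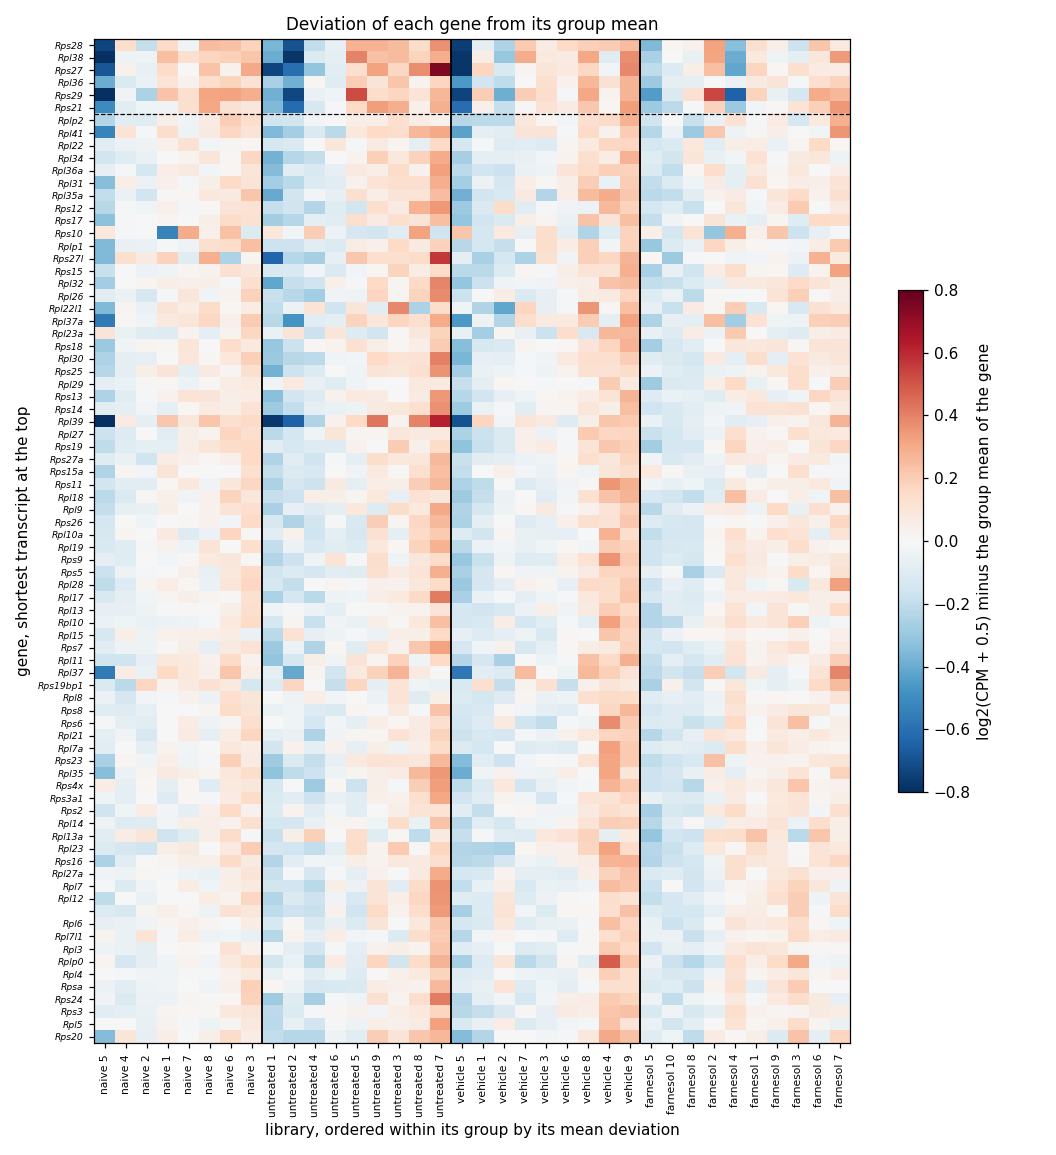
Deviation of log2(CPM + 0.5) from the group mean for each of the 80 genes (rows, shortest transcript at the top) and each of the 36 libraries (columns, ordered within groups by mean deviation; colours saturate at 0.8). In the columns at the ends of a group's order most genes share a colour, while other columns are mixed. Colours are often deepest for the genes above the dashed line at 400 bases, which in some columns differ in sign from the rest. Rps10 does not follow the columns.

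The widest spread between animals was in the shortest mRNAs. Rps29, a zinc-binding 40S protein, measured 42.0, 95.7 and 106 CPM (lowest, median, highest) in naive, 49.6, 89.0 and 119 CPM in untreated, 50.7, 93.6 and 105 CPM in vehicle and 53.5, 86.1 and 122 CPM in farnesol mice. Rps27 ranged from 68 to 135 CPM in naive and from 62.6 to 176 CPM in untreated mice, and Rpl38, a 60S protein known for its part in translating Hox mRNAs, from 45.3 to 98.4 CPM in naive mice. Their SDs within groups were 0.38, 0.34 and 0.34 on the log2 scale, whereas Rpl4, a long 60S mRNA, had 0.083 and ranged from 404 to 436 CPM in naive mice. Counting error alone gives 0.036 for Rps29, 0.032 for Rps27 and 0.016 for Rpl4. For Rps10 both the spread and the counting error were 0.19.

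By length of the principal transcript, the median SD was 0.32 for the 6 members under 400 bases (Rps28, Rps27, Rpl38, Rpl36, Rps29 and Rps21), 0.15 for 24 members of 400 to under 600 bases, 0.13 for 17 of 600 to under 800 and for 21 of 800 to under 1200 bases, and 0.11 for 12 of 1200 bases and over. The length limits were set, and Rpl36 and Rps28 named, after the values were seen. A similar gradient appeared outside the family: respiratory chain genes had 0.30 for 5 genes under 400 bases and 0.091 for 16 of 1200 bases and over, and other protein-coding genes with a mean of at least 10 CPM had 0.25 for 11 genes and 0.12 for 9502 genes in these classes. The 5 short respiratory chain genes ranged from 0.21 to 0.34. Their list had no minimum level beyond the count filter, and its counting error was not computed. Rpl39, on a transcript annotated with 612 bases, stood with the short genes at 0.32.

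The 6 short members deviated together in some libraries. Their mean deviation was -0.70 in naive replicate 5, -0.69 in vehicle replicate 5 and -0.63 in untreated replicate 2, where the other 74 members deviated by -0.16, -0.22 and -0.11 and the 5 short respiratory chain genes by -0.50, -0.33 and -0.51. Their highest was 0.35 in untreated replicate 7. The 6 genes and the 5 lay on the same side of their group means in 28 of 36 libraries, and the 6 genes and the other members in 27. In farnesol replicate 4, by contrast, the 6 genes deviated by -0.36 and the other members by 0.066. For group comparisons this spread sets the precision: the SE of the change of Rps29 against naive was 0.16 in each EAE group, and the 95% interval ran from -0.38 to 0.29 in untreated mice. Of Rpl4 the same interval ran from -0.11 to 0.058. The part of RNA integrity and fragment length in this spread was not tested, since no source used here gives them per library.

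**Figure D5:**
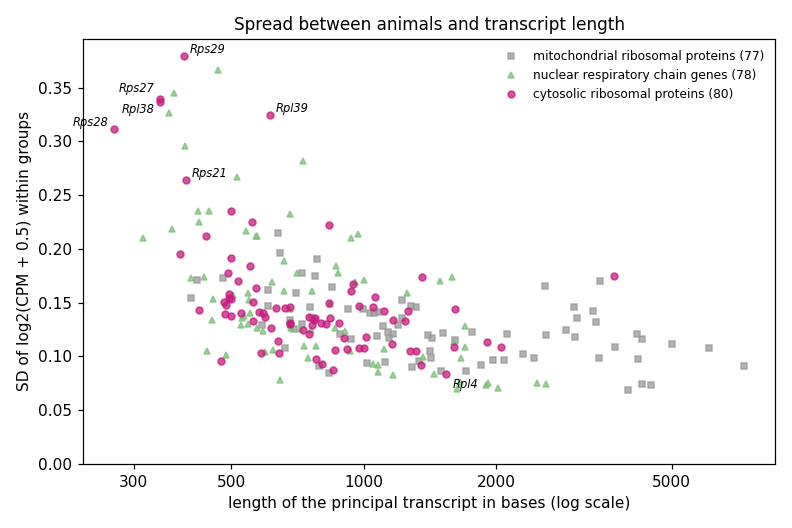
SD of log2(CPM + 0.5) within groups against the length of the principal transcript (log scale) for the 80 cytosolic ribosomal protein genes, 77 mitochondrial ribosomal protein genes and 78 nuclear respiratory chain genes. Members under 400 bases reach 0.38, and Rpl4 lies lowest at 0.083.

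Other translation genes are given beside the family. Of 36 initiation factor genes, 12, 13 and 15 passed as lower in untreated, vehicle and farnesol mice against naive and none as higher, with medians of -0.077, -0.099 and -0.083; 11.3%, 15.2% and 16.3% of all genes were lower and 13.6%, 16.3% and 17.9% higher. In the same comparisons 5, 8 and 8 of 16 brain cell markers were lower and 2, 1 and 1 higher, with medians of -0.12, -0.15 and -0.17. Of 7 nuclear long noncoding RNAs, 6, 6 and 7 were higher and none lower, with medians of 0.79, 0.81 and 0.98. The part of either in these counts was not tested. Eif3c, a core subunit of eIF3, had changes of -0.16 ± 0.037, -0.22 ± 0.037 and -0.26 ± 0.036 (edgeR adjusted p = 0.00126, 2.33e-05 and 1.24e-06). Of 9 elongation factor genes, 3, 4 and 4 were lower. Eef1a2, the neuronal form of the factor that delivers tRNA, fell by 0.22, 0.31 and 0.35 on the log2 scale, whereas Eef1a1, the form of most other cells, had changes of -0.036, -0.071 and -0.052 that did not pass (edgeR adjusted p = 0.726, 0.425 and 0.551). Eef2, the translocation factor, had -0.10 ± 0.045 in untreated mice (edgeR adjusted p = 0.0867) and fell by 0.15 and 0.18 in vehicle and farnesol mice.

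Of 20 other genes with TOP mRNAs, 4, 5 and 5 were lower (20%, 25% and 25%) and none higher, among them Pfdn5, a prefoldin subunit, and Eef1g, which is also among the elongation factors. Of 40 ribosome assembly genes, 4 were higher in each comparison and 3, 8 and 9 lower, in all 17.5%, 30% and 32.5%, where 24.9%, 31.5% and 34.2% of all genes were called. Taf1d, a subunit of the RNA polymerase I selectivity factor, rose by 0.49 ± 0.081, 0.70 ± 0.081 and 0.71 ± 0.08, and Nvl, an ATPase of 60S maturation, by 0.39 ± 0.072, 0.46 ± 0.072 and 0.44 ± 0.071. Of 24 regulators around mTOR and MYC, 4, 6 and 3 were higher and 2, 5 and 3 lower, in all 25%, 45.8% and 25%. Rps6kb2, an S6 kinase, rose by 0.54 ± 0.095, 0.71 ± 0.095 and 0.62 ± 0.093, and Mtor fell by 0.17, 0.20 and 0.17 on the log2 scale. Of the mitochondrial ribosomal protein genes, 3, 2 and 3 of 77 were higher and 8, 6 and 11 lower (in all 14.3%, 10.4% and 18.2%), and of respiratory chain genes 23, 23 and 28 of 78 were lower (29.5%, 29.5% and 35.9%) and none higher. All these lists were chosen with earlier results of these data known, the comparisons share the naive libraries, and whether the lists differ from the ribosomal protein genes was not tested.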

How the data were processed

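The deposited table holds raw gene counts of 36 mouse brain RNA libraries. The submitters' processing notes name STAR 2.5 and the build mm10; the labels' protocols also name Kallisto and a NEBNext Ultra kit. No source used here gives the counting program, gene annotation or strand setting. Symbols came from GENCODE M21 by gene identifier.

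From these counts, edgeR 4.0.16 (R 4.3.3; filterByExpr with a minimum count of 10, TMM scaling) fitted all 36 libraries with a mean per group, and its quasi-likelihood F test, two-sided, was adjusted by Benjamini-Hochberg over 18438 genes with a threshold of 0.05. CPM values use TMM-scaled library sizes, and log2 values add 0.5 CPM. Spread is the SD of log2 values pooled over groups. Counting error is computed from the counts and covers counting only. Figures used matplotlib 3.10.9 (Python 3.11.15). The pipeline was tested on simulated data. The members, lists and named genes (genes called in a comparison, the extremes of level per length, and a list of well-known members and paralogs) were chosen with earlier results of these data known. Alternatives were other scaling, DESeq2 1.42.0, no count filter, fits of 2 groups, a replicate block, library set, and leaving out each library; those on Sbp and cerebellar genes were added after seeing the data. Some genes are not reported by name here, and 1 row of the plots that list all genes has no label.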

Additional observations from a re-analysis of the deposited data

Results flagged for a closer look

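Among the groups of 8 to 10 libraries, 52 combinations of a group and a value (the family's mean and share, the 5 called genes and the 6 short genes) were screened for a library whose gap to its nearest neighbour is large beside the group's range (Dixon's test at the 95% level, which chance passes in about 1 of 20 groups). Such a gap was found 4 times. Naive replicate 5 had 45.33 CPM of Rpl38, where the other naive libraries had 80.7 to 98.4 CPM, and 68.02 CPM of Rps27, where the others had 105 to 135 CPM. Untreated replicate 7 had 450.4 CPM of Rpl3, against 347 to 399 CPM in the other untreated libraries. Farnesol replicate 7 had 166 CPM of Rpl28, against 117 to 140 CPM in the other farnesol libraries.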

How the results depend on the processing

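In untreated against naive mice, where 4 of the 80 genes were called, the count was 1 with no count filter, 2 with only the 2 groups fitted, 0 with library set as a term, 7 without libraries with Sbp above 1 CPM (an exclusion chosen after seeing the data) and 1 to 5 when single libraries were left out. Of all genes tested, 9.86%, 23.6%, 0.949% and 18.7% were called in the first 4 of these settings. In vehicle against naive mice, also with 4, it was 1 with library set as a term and 3 to 10 with single libraries left out. In farnesol against naive mice, with 2, it was 1 with library set as a term, 1 with only libraries of the shared set and 2 to 6 with single libraries left out. With only the shared set, 28.2% of all genes tested were called. Leaving out single untreated, vehicle or farnesol libraries gave shares of 20.1% to 25.4%, 27.7% to 31.2% and 30.6% to 35.1% of all genes against naive mice. Farnesol against untreated mice gave 2 calls (2.5%, beside 1.18% of all genes) without libraries with Sbp above 1 CPM, and 0 in the main result. The cause of these shifts was not tested. With replicate number as a block, the counts were 3, 8 and 4 against naive mice. Of all genes tested, 23.3%, 29.5% and 32.1% were called there. Correlations over genes between same-numbered libraries ran from -0.38 to 0.43, and exceeded 0.1 in 0 to 4 of the 8 or 9 pairs of a comparison. Libraries of different number were not correlated for comparison. Whether the numbers pair animals was therefore not tested, and they were not taken to do so. Rpl9 kept its call in untreated and vehicle mice whichever library was left out, as did Rpl28 and Rps10 in vehicle and farnesol mice. With library set as a term, however, Rpl9, Rpl28, Rpl3 and Rplp2 lost every call and Rps10 its call in untreated mice, and without the Sbp libraries none of the 4 genes called in untreated mice and not Rplp2 in vehicle mice passed. The library set term also cut the share called over all genes from 24.9% to 0.949% in untreated mice. The cut was from 31.5% to 3.71% in vehicle and from 34.2% to 26.3% in farnesol mice. In untreated and vehicle mice the loss was therefore not particular to these genes. In untreated mice Rpl28 lost its call without untreated replicate 1, 2, 4 or 5 or naive replicate 1, 2, 3, 6 or 7, Rpl3 without untreated replicate 2, 4, 5 or 6 or naive replicate 3, 6 or 7, and Rps10 without untreated replicate 1, 4 or 8 or naive replicate 1, 2, 3 or 4. Rplp2 lost its call in vehicle mice without vehicle replicate 1, 2, 3, 5 or 6 or naive replicate 1, 3, 6 or 8. With no scaling factor Rpl9, Rpl28, Rpl3 and Rplp2 lost their calls and Rps10 kept its own. No called gene changed sign under any alternative. Few reads and the exons shared with RPS10-NUDT3 limit Rps10, and spread between animals limits the short genes.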
